A study of Mus musculus with 8 samples.

Results

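The 10 genes described here are mouse Toll-like receptors with their co-receptors and adaptor: Tlr1, Tlr2, Tlr4, Tlr7, Tlr8, Tlr13, Cd14, Ly96, Ly86 and Myd88. They were taken by symbol from the 34866 genes of the deposited table, and all 10 were found there. RNA came from the epididymal white fat of male mice whose age the labels do not give. All mice carried a floxed aromatase gene (Aromatase flox/flox), which encodes the enzyme that turns androgens into oestrogens. The 4 control libraries came from mice with no other change in the labels, and the 4 knockout libraries from mice that carried aP2-Cre as well (aP2-Cre;Aromatase flox/flox), a transgene that expresses Cre recombinase from the Fabp4 promoter. That promoter is used by adipocytes and also by macrophages. None of the 8 libraries came from mice with the transgene alone, so an effect of the transgene and one of the deletion cannot be told apart. The series asked which genes act downstream of fat aromatase in phosphorus metabolism.

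Toll-like receptors recognise parts of microbes and start inflammatory gene expression. Tlr1, Tlr2 and Tlr4 sit on the cell surface, where Tlr2 pairs with Tlr1 to bind bacterial lipopeptides and Tlr4 binds lipopolysaccharide together with Ly96 (also called MD-2) and Cd14. Ly86 (MD-1) is a relative of Ly96 that partners the receptor-like protein Cd180. Tlr7, Tlr8 and Tlr13 sit in endosomes and sense RNA, and mouse Tlr13 recognises bacterial ribosomal RNA. Myd88 is the adaptor that passes the signal on from these receptors to kinases of the Irak family and to NF-kB. In adipose tissue these genes are best known from macrophages, and Tlr4 and Myd88 are also expressed by adipocytes and stromal cells.

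None of these genes passed the test between the genotypes, edgeR's quasi-likelihood test with an adjusted p of 0.05 over all tested genes. Of the 10 members, 8 had enough counts to be tested, and 0 passed, against 0.168% of the 12480 genes tested (0.12% higher and 0.0481% lower in the knockouts). At an unadjusted p under 0.05 the member count was also 0, against 6.39% of all tested genes (3.52% higher and 2.87% lower). DESeq2 and limma-voom gave 0 by both criteria, with no adjusted p from DESeq2 for Tlr8. The log2 fold change, knockout over control, was above 0 in 7 of the 8 tested members and below 0 in Myd88. Tlr4, Ly86 and Ly96 lay near 0, at 0.01, 0.08 and 0.10 with standard errors of 0.26, 0.45 and 0.35. The values of Tlr2, Tlr4, Ly96 and Ly86 turned sign under at least 1 alternative. The median log2 fold change over the 8 was 0.25, against -0.0015 over all tested genes, of which 49.7% were above 0. The members were not tested as a set. Libraries of the genotypes did not overlap for 2 of the 8 members, against 4.24% of all tested genes. These were Tlr13, higher in the knockouts as 2.52% of all tested genes were, and Myd88, lower as 1.72% were. The separation of Myd88 rests on the library scaling used, and that of Tlr13 is, at its closest, less than the CPM of 1 count, as described below.

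**Figure D1:**
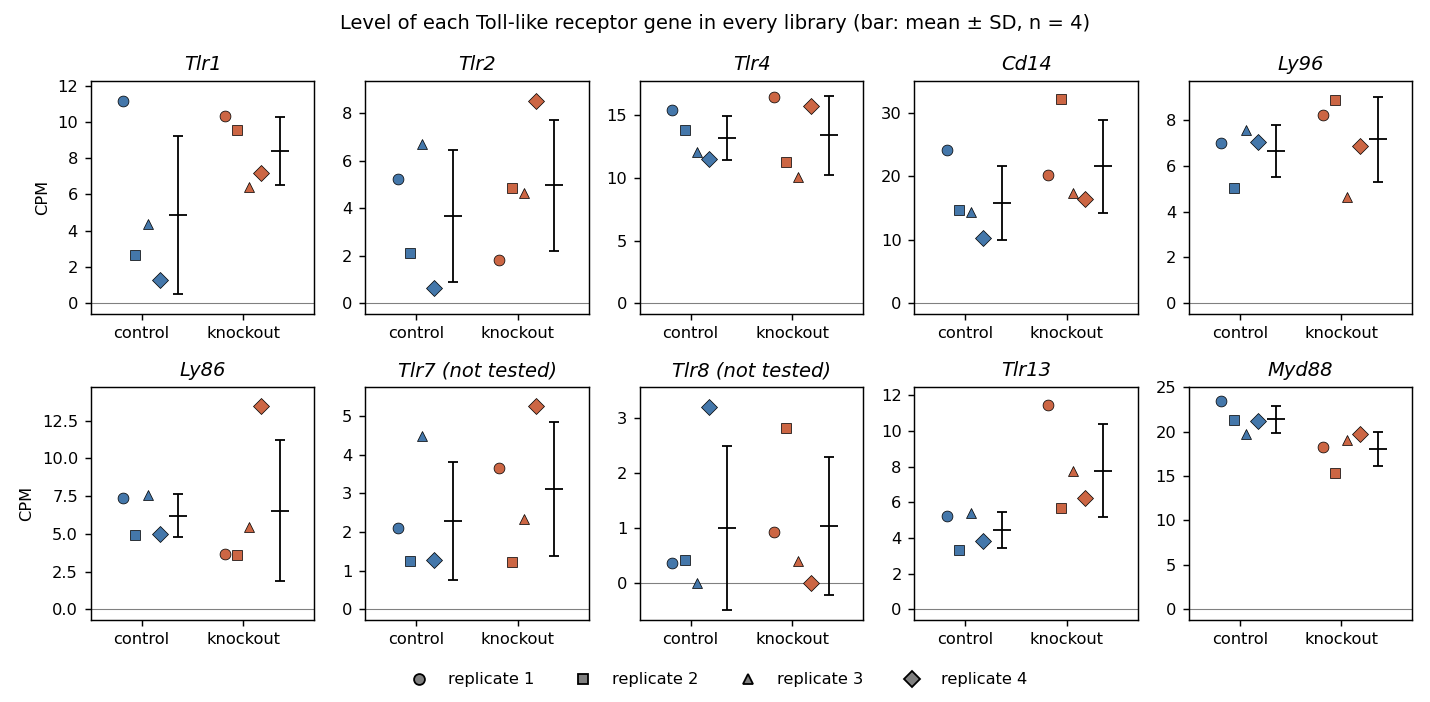
Level of each of the 10 genes in CPM (counts scaled to library size) in the 4 control and 4 knockout libraries, 1 point per library, with the mean and SD of each genotype. The control and knockout points overlap for 8 genes and separate for Tlr13 and Myd88, where the nearest libraries lie at 5.38 and 5.65 CPM for Tlr13 and at 19.7 CPM on both sides for Myd88.

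The counts behind these values were low. Library totals ranged from 1538427 to 3053565 estimated counts, and a count of 0 allows a level of up to 3 counts, or 0.984 to 1.92 CPM, by counting error alone. Over all 8 libraries the members had from 17 counts (Tlr8) to 382 counts (Myd88). Controls and knockouts did not overlap in their mitochondrial count share, at 10.7 to 12.4% against 8.71 to 10.1%, nor in the number of genes detected, at 17176 to 17937 against 17968 to 18247. The part of these measures in the results below was not tested. Cyp19a1, the targeted aromatase gene, had 0 to 5.02 counts per library in either genotype, so these libraries give no check of the deletion. The labels do not say whether the libraries come from separate mice, so p-values measure the spread between these samples.

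Among the surface receptors, Tlr1 (GRCm38, as for all genes here, chromosome 5, 64924679 to 64933563, minus strand) was at 11.1, 2.67, 4.36 and 1.28 CPM in control replicates 1 to 4. It was at 10.3, 9.58, 6.42 and 7.15 CPM in knockout replicates 1 to 4. Of the 4 controls, 3 lay below every knockout library, and control replicate 1 lay above all of them. The means were 4.86 ± 4.37 CPM in the controls and 8.37 ± 1.88 CPM in the knockouts (SD, n = 4). On the log2 scale the knockouts were 0.71 higher (standard error 0.50, edgeR adjusted p = 0.91). Leaving out control replicate 1 made this 1.55, with an unadjusted p of 0.00644 (edgeR adjusted p = 0.59). It was 0.49 without control replicate 2 and 0.45 without control replicate 4, so single controls moved the value in both directions.

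The counts of Tlr1 are also uncertain because part of its sequence is shared. Of 3322 distinct words of 31 bases in its annotated transcripts, 607 also occur in its neighbour Tlr6, the other receptor that pairs with Tlr2. Its words are shared with 2036 other genes in all, and Olfr1469 comes next with 56. The estimated count of Tlr1 was not a whole number in 7 of 8 libraries, and that of Tlr6 in 3. Which shared genes made the counts fractional was not tested. The words shared with Tlr6 form 9 runs in the coding part of the last exon of Tlr1, which end 350 to 1207 bases before the annotated end of the transcript. The 300 bases around the longest run, of 229 bases, are shown because a read of 51 bases from most of this stretch could come from either gene. Both are on the minus strand of GRCm38, at chr5:64925502-64925801 for Tlr1 and chr5:64953793-64954092 for Tlr6, in coding exon sequence, and the capitals mark the 2 bases that differ.
Tlr1: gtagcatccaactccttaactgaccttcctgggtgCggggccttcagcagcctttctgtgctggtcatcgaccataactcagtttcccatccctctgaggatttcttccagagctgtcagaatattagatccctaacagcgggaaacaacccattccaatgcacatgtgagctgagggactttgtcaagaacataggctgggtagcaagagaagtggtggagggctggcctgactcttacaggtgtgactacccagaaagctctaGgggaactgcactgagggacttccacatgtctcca
Tlr6: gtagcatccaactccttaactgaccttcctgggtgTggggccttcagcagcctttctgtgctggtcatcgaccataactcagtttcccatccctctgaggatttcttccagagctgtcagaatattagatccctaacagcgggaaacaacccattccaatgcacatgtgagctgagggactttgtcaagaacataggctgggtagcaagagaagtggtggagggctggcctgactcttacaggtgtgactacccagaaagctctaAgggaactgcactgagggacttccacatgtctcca

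Tlr6 itself had 1 to 8 counts per library and was not tested. With the counts of Tlr1 and Tlr6 summed, a choice made after seeing the data, the level was 6.77 ± 4.97 CPM in the controls and 10.3 ± 1.79 CPM in the knockouts (SD, n = 4). For the sum the log2 fold change was 0.54 (edgeR adjusted p = 0.92). Counts shared with other genes are not covered by this sum.

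Tlr2 (chromosome 3, 83836272 to 83841767, minus strand) was at 5.24, 2.09, 6.73 and 0.641 CPM in control replicates 1 to 4. In knockout replicates 1 to 4 it was at 1.83, 4.84, 4.66 and 8.53 CPM. The highest value was in knockout replicate 4 and the lowest, a single count, in control replicate 4, and the genotypes overlapped. Its log2 fold change was 0.40 (standard error 0.58, edgeR adjusted p = 0.95), and it ran from -0.0045 without knockout replicate 4 to 0.81 without control replicate 3. The 95% confidence interval of the difference ran from 0.558-fold to 3.13-fold.

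The lipopolysaccharide receptor gene Tlr4 (chromosome 4, 66827584 to 66930284, plus strand) was at 15.5, 13.8, 12.1 and 11.5 CPM in control replicates 1 to 4. In knockout replicates 1 to 4 it was at 16.5, 11.3, 10.1 and 15.7 CPM, so that knockout libraries lay both above and below all controls. The means were 13.2 ± 1.77 and 13.4 ± 3.18 CPM (SD, n = 4), with a log2 fold change of 0.01 (standard error 0.26, edgeR adjusted p = 0.998). This value changed sign under 6 of 16 alternatives. The 95% confidence interval ran from 0.69-fold to 1.47-fold.

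Cd14, which hands lipopolysaccharide to the Tlr4 complex (chromosome 18, 36725067 to 36726798, minus strand), was at 24.1, 14.6, 14.3 and 10.3 CPM in control replicates 1 to 4. It was at 20.2, 32.3, 17.4 and 16.4 CPM in knockout replicates 1 to 4. All 4 knockouts lay above 3 of the controls, and control replicate 1 lay above 3 of the knockouts. For Cd14 the log2 fold change was 0.41 (standard error 0.29, edgeR adjusted p = 0.91). With control replicate 1 left out it was 0.70, with an unadjusted p of 0.0318 (edgeR adjusted p = 0.81). Without control replicate 4 it was 0.27, and without knockout replicate 2, the library with the highest Cd14 level, it was 0.15.

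Ly96, the Tlr4 partner that holds the lipid part of lipopolysaccharide (chromosome 1, 16688051 to 16709611, plus strand), was at 6.99, 5.02, 7.58 and 7.05 CPM in the controls. The knockouts were at 8.24, 8.88, 4.66 and 6.89 CPM, which spans the control range on both sides. Ly96 had a log2 fold change of 0.10 (standard error 0.35, edgeR adjusted p = 0.98), and leaving out control or knockout replicate 2 turned its sign. Its transcripts share words of 31 bases with 1432 other genes, but at most 9 of 1020 words with any of them.

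Ly86, the partner of Cd180 (chromosome 13, 37345208 to 37419036, plus strand), was at 7.35, 4.92, 7.58 and 5.01 CPM in the controls and at 3.66, 3.63, 5.43 and 13.4 CPM in the knockouts. In 2 knockouts the level lay below every control, and knockout replicate 4 lay above every other library. Over all libraries its log2 fold change was 0.08 (standard error 0.45, edgeR adjusted p = 0.99), and it turned to -0.57 without knockout replicate 4 (edgeR adjusted p = 0.90). That library also had the highest summed level of the 6 monocyte markers, 372 CPM against 197 to 231 CPM in the other knockouts. It was highest as well in the mesothelial markers, at 134 CPM against 70.2 to 78.8 CPM. Their part in its Ly86 value was not tested.

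Of the 3 endosomal receptors, 2 were at the edge of detection. Tlr7 (chromosome X, 167304929 to 167330558, minus strand) had 6, 3, 10 and 2 counts in the controls and 8, 3, 6 and 16 in the knockouts. Tlr8 (chromosome X, 167242696 to 167264329, minus strand) had 1, 1, 0 and 5 counts in the controls and 2, 7, 1 and 0 in the knockouts. The genotypes overlapped in both genes, and neither reached the low-count filter. Fitted without that filter, their edgeR adjusted p-values were 0.90 for Tlr7 and 0.99 for Tlr8, and no difference was called.

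Tlr13 (chromosome X, 106143204 to 106160493, plus strand) was at 5.24, 3.35, 5.38 and 3.85 CPM in control replicates 1 to 4. In knockout replicates 1 to 4 it was at 11.4, 5.65, 7.76 and 6.23 CPM. Each knockout library lay above each control library, but by only 0.27 CPM at the closest, less than 1 count is worth in any library. The nearest were control replicate 3, with 12 counts, and knockout replicate 2, with 14. The means were 4.45 ± 1.01 and 7.77 ± 2.61 CPM (SD, n = 4), and the log2 fold change was 0.77 (standard error 0.38). The unadjusted p was 0.0606 and the edgeR adjusted p 0.81. Without any 1 library the log2 fold change lay between 0.54 and 0.90. Its transcripts share no word of 31 bases with another gene.

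The adaptor gene Myd88 (chromosome 9, 119335934 to 119341411, minus strand) had 67, 51, 44 and 33 counts in the controls and 40, 38, 49 and 60 in the knockouts. This was 23.4, 21.3, 19.7 and 21.2 CPM in the controls against 18.3, 15.3, 19.0 and 19.7 CPM in the knockouts. The knockouts all lay below the controls, but control replicate 3 and knockout replicate 4 were only 0.05 CPM apart, less than 1 count is worth in any library. The means were 21.4 ± 1.51 and 18.1 ± 1.92 CPM (SD, n = 4), and the log2 fold change was -0.24 (standard error 0.19, edgeR adjusted p = 0.92). Its 95% confidence interval ran from 0.64-fold to 1.11-fold. With library totals in place of trimmed mean of M values (TMM) factors the log2 fold change was -0.18, and in all 16 alternatives it stayed between -0.29 and -0.17. By library totals the genotypes also overlapped, with control replicate 3 below knockout replicates 3 and 4 (TMM factors 0.941, 1.06 and 1.01).

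**Figure D2:**
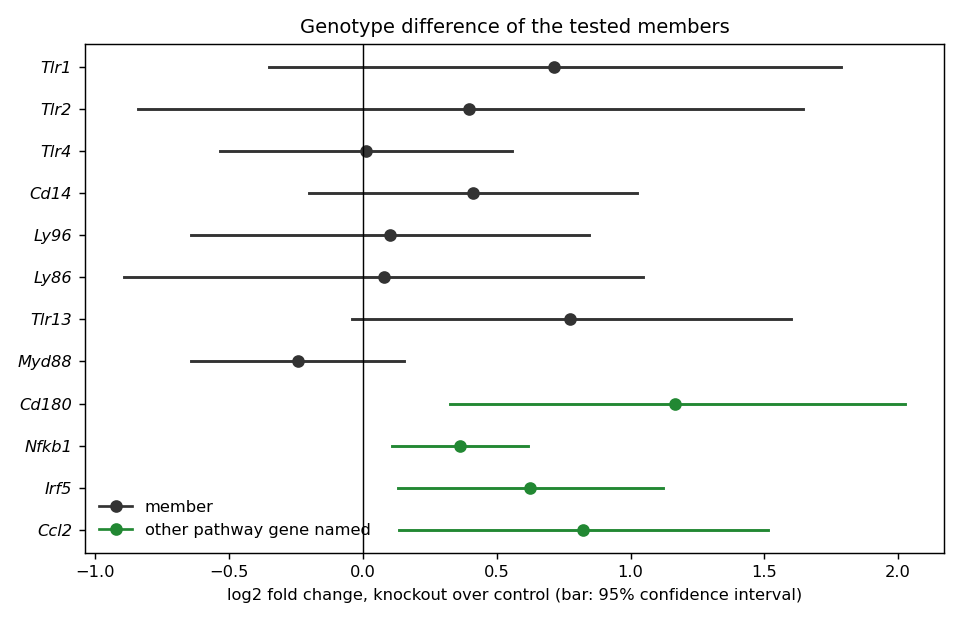
Log2 fold change (knockout over control) with its 95% confidence interval for the 8 tested members (dark) and the 4 other pathway genes with an unadjusted p under 0.05 (green). All 8 intervals of the members include 0, from Tlr13 at 0.77 to Myd88 at -0.24.

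Sequences ahead of a RefSeq start site of Tlr13 and Myd88 are shown because these were the members whose libraries did not overlap, in opposite directions. They come from RefSeq's promoter table for GRCm38.p6, which holds 250 bases before and 50 after a start site and lists 6 of the 10 members in 7 windows. Only the bases from the 5′ end of each window up to the first annotated exon base in it are printed. They lie at chrX:106143025-106143203 on the plus strand for Tlr13 and chr9:119340042-119340268 on the minus strand for Myd88. The Myd88 stretch lies outside its annotated exons but inside the annotated gene, whose 5′ end is further upstream, at 119341411. Both strands were searched for GAGGAA, a core bound by the myeloid factor PU.1 and its relatives, and for the interferon response element core (GAAA, any 2 bases, GAAA), and capitals mark the matches.
Tlr13: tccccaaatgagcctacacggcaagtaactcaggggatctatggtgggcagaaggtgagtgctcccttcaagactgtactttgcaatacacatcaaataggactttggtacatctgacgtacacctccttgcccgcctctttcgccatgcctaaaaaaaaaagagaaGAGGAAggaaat
Myd88: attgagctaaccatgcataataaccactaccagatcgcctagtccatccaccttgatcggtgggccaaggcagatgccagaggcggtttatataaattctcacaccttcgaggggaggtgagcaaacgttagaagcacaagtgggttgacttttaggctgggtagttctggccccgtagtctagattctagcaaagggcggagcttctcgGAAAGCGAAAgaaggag

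In the full windows of 300 bases, GAGGAA occurred in 3 of the 7 (Tlr1, Tlr8 and Tlr13), against 28.28% of the 32851 windows of the table. The interferon element core occurred in 1 of the 7, that of Myd88, against 3.44% of all windows. In Tlr13 the GAGGAA match began 83 bases before the RefSeq start, and in Myd88 the other match began 40 bases before it. These matches describe the letters of the windows and no binding was measured.

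The summed level of macrophage markers was higher in the knockouts, and the members are set beside it here. All 12 macrophage markers listed were detected. Their sum was 1130, 1092, 1104 and 1039 CPM in the controls and 1468, 1529, 1390 and 1841 CPM in the knockouts, or 1.43 times the control mean, with no overlap. Of the 11 tested, 2 (Cd68 and Lyz2) passed an edgeR adjusted p of 0.05, both higher, against 0.12% of all tested genes. The median log2 fold change of the markers was 0.31. The libraries of the genotypes did not overlap for 4 of the markers (Adgre1, Csf1r, Cd68 and Lyz2, all higher), against 2.52% of all tested genes. The edgeR adjusted p was 0.77 for Adgre1 and 0.775 for Csf1r. Mertk and Cd163 had log2 fold changes of -0.06 and -0.19, and Fcgr1, which was not tested, had a mean of 4.79 CPM in the controls and 2.92 CPM in the knockouts. The sum leans on Lyz2, the lysozyme gene, which made up, as a mean over libraries, 34.7% of it in the controls and 43.9% in the knockouts. Without Lyz2 the sum was 1.23 times the control mean and the genotypes overlapped. In whole tissue, more macrophages and more RNA per macrophage cannot be told apart.

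Per 1000 CPM of these macrophage markers, Myd88 was at 20.7, 19.5, 17.9 and 20.4 CPM in the controls and 12.5, 10.0, 13.7 and 10.7 CPM in the knockouts. It was the only tested member whose ratio did not overlap between the genotypes, at 59.7% of the control mean. Of all tested genes, 34.1% were likewise lower without overlap on this scale and 0.184% higher, and the median of all tested genes was 70.7% of the control, since the denominator itself was higher in the knockouts. With Lyz2 left out of the sum the Myd88 ratio was at 70.1% of the control mean, still without overlap, against 10.1% of all tested genes (0.369% were higher without overlap).

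Tlr4 was at 12.1 ± 1.30 and 8.61 ± 1.84 CPM per 1000 CPM of macrophage markers (SD, n = 4), or 71.1% of the control mean. Ly86 was at 70.9% and Ly96 at 75.7%, all close to the median gene. Cd14 was at 97.7%, Tlr2 at 93.5%, Tlr1 at 125% and Tlr13 at 126%, and in each of these 7 members the libraries of the genotypes overlapped. With Lyz2 left out of the sum some members crossed the control level, with Cd14 at 113% and Tlr2 at 108%. Tlr4 was at 83.6%, Tlr1 at 148% and Tlr13 at 149%, and the libraries again overlapped. The sum without Lyz2 was itself 1.23 times the control mean in the knockouts, and the median of all tested genes on that scale is not given here. Single libraries also moved these ratios. The log2 ratio of Tlr1 was 0.32 over all libraries, 1.10 without control replicate 1 and 0.0092 without control replicate 4. That of Tlr13 was 0.33 over all libraries and 0.052 without knockout replicate 1, and that of Ly86 was -0.50 over all libraries and -0.96 without knockout replicate 4. Whether these ratios differ between members was not tested.

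**Figure D3:**
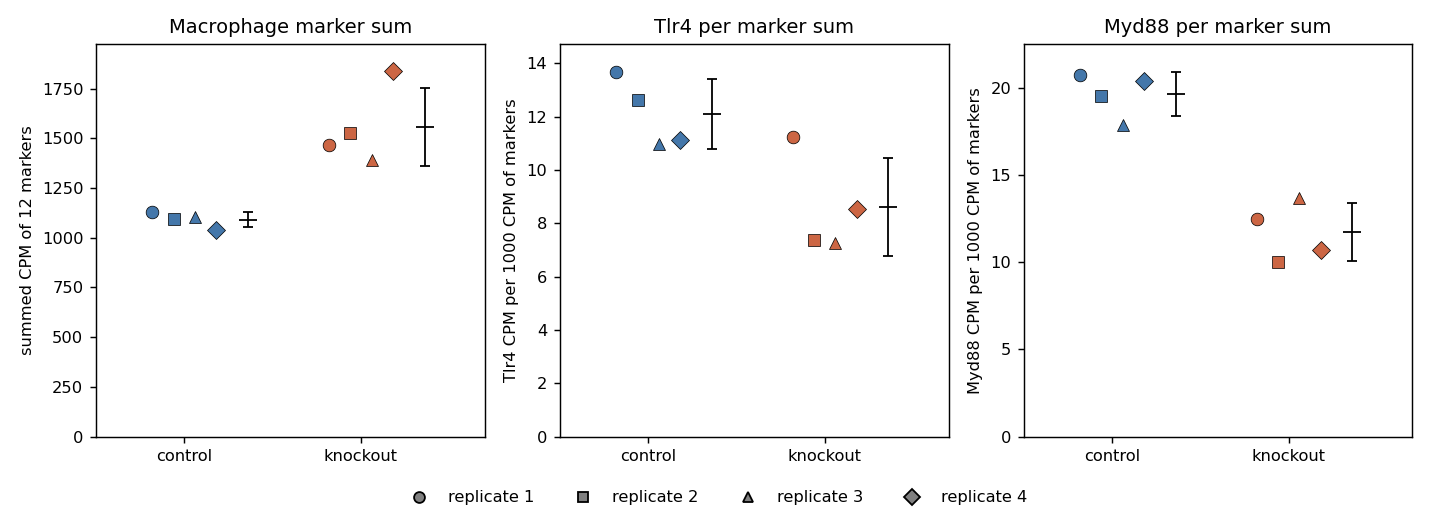
Summed CPM of the 12 macrophage markers (left), and the CPM of Tlr4 (middle) and Myd88 (right) per 1000 CPM of those markers, in the 4 control and 4 knockout libraries with the mean and SD. The marker sum is 1039 to 1130 CPM in the controls and 1390 to 1841 CPM in the knockouts, and the Myd88 ratio is 17.9 or more in the controls and 13.7 or less in the knockouts.

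The summed markers of other cells that express Toll-like receptors overlapped between the genotypes, though most of these sums rest on 1 gene. The 8 neutrophil markers summed to 33.5 to 38.3 CPM in the controls and 33.3 to 46.1 CPM in the knockouts, with Ly6g and Ngp at 0 in every library and Cxcr2 making up 75.5% of the control sum. Camp, a neutrophil granule gene in that list, had 10, 7, 5 and 5 counts in the controls and 0, 0, 4 and 1 in the knockouts, lower without overlap in CPM, and was not tested. Csf3r, also not tested, went the other way, at 1.21 ± 0.659 and 3.62 ± 2.10 CPM with overlap (SD, n = 4). The 2 tested neutrophil markers, S100a8 and Cxcr2, had log2 fold changes of 0.52 and 0.17. S100a9 and Retnlg had at most 4 counts in any library. The 7 dendritic cell markers, all detected, summed to 35.6 to 44.0 and 37.4 to 49.9 CPM. The 6 monocyte markers summed to 168 to 211 and 197 to 372 CPM, and the 6 B cell markers to 399 to 989 and 306 to 817 CPM. Fn1 made up 72.1% of the monocyte sum in the controls and Ighm 98.8% of the B cell sum. Chil3, another monocyte marker, had 2 to 4 counts in each control and 0 or 1 in each knockout and was not tested. Of the 4 tested monocyte markers 2 were higher and 2 lower, from a log2 fold change of -0.81 for Ly6c2 to 0.54 for Fn1. The part of these markers in the members' values was not tested. Of markers for the labelled tissue, all 8 adipocyte markers were detected, at 34480 to 45900 CPM in sum in the controls and 27720 to 44290 CPM in the knockouts. Of 5 epididymis markers, Crisp1, Lcn5 and Lcn8 were at 0 in every library. Adam7 had 22 counts in knockout replicate 3, 9 in control replicate 2 and at most 1 elsewhere, and Rnase10 had 4 and 3 counts in control and knockout replicate 1 and 0 elsewhere.

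The rest of the Toll-like receptor pathway was examined through 84 other genes, of which 58 were tested. As with the members, 0 passed an adjusted p of 0.05 in edgeR, and also 0 in limma-voom and in DESeq2, which gave 14 of the 84 no adjusted p. At an unadjusted p under 0.05, 4 genes were higher and 0 lower in the knockouts, where 3.52% and 2.87% of all tested genes were. The log2 fold change was above 0 in 39 of 58, against 49.7% of all tested genes, with a median of 0.11. Libraries of the genotypes did not overlap for 3 of the 58, all higher, against 2.52% of all tested genes. These 3 are among the 4 genes with an unadjusted p under 0.05. As that choice used the same data, their separation is no independent support.

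Of the 4 genes with an unadjusted p under 0.05, Cd180, the receptor-like partner of Ly86, was at 5.94, 2.51, 5.38 and 2.56 CPM in the controls. It was at 7.33, 8.88, 13.6 and 8.20 CPM in the knockouts. All knockout libraries lay above all controls, with a log2 fold change of 1.17 (standard error 0.40, unadjusted p = 0.0101, edgeR adjusted p = 0.55). The value for its partner Ly86 was 0.08, and the difference between the pair was not tested. Nfkb1, which encodes the p50 precursor of NF-kB, was at 51.1 to 55.7 CPM in the controls and 64.1 to 75.9 CPM in the knockouts, without overlap (log2 fold change 0.36, edgeR adjusted p = 0.51). Irf5, a transcription factor activated downstream of Myd88, was at 11.5 to 14.7 and 14.9 to 24.9 CPM, also without overlap (log2 fold change 0.62, edgeR adjusted p = 0.67). Ccl2, a chemokine gene that NF-kB induces, was at 4.49 to 17.2 and 15.3 to 24.7 CPM with overlap (log2 fold change 0.82, edgeR adjusted p = 0.69).

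By role, the other receptors and co-receptors had 4 of 9 genes tested. Tlr5, Tlr6, Tlr9, Tlr11 and Tlr12 fell below the low-count filter, and Tlr3, the receptor for double-stranded RNA that does not use Myd88, was at 12.03 ± 2.19 and 12.6 ± 4.38 CPM (SD, n = 4; edgeR adjusted p = 0.99). Of the 19 kinases and ubiquitin ligases, all tested, 12 had a log2 fold change above 0 and the values ran from -0.24 to 0.28. The 6 chaperone and trafficking genes ran from -0.13 to 0.41, the 9 transcription factors from -0.27 to 0.62 and the 12 inhibitors from -0.29 to 0.35. Both tested adaptors lay within 0.13 of 0, and the interleukin 1 family receptors that also use Myd88 were at -0.19 and 0.22. Of 19 genes that Toll-like receptor signalling induces, only 4 had enough counts to be tested, and Tnf, Il6 and Il1b had at most 5 counts in any library.

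**Figure D4:**
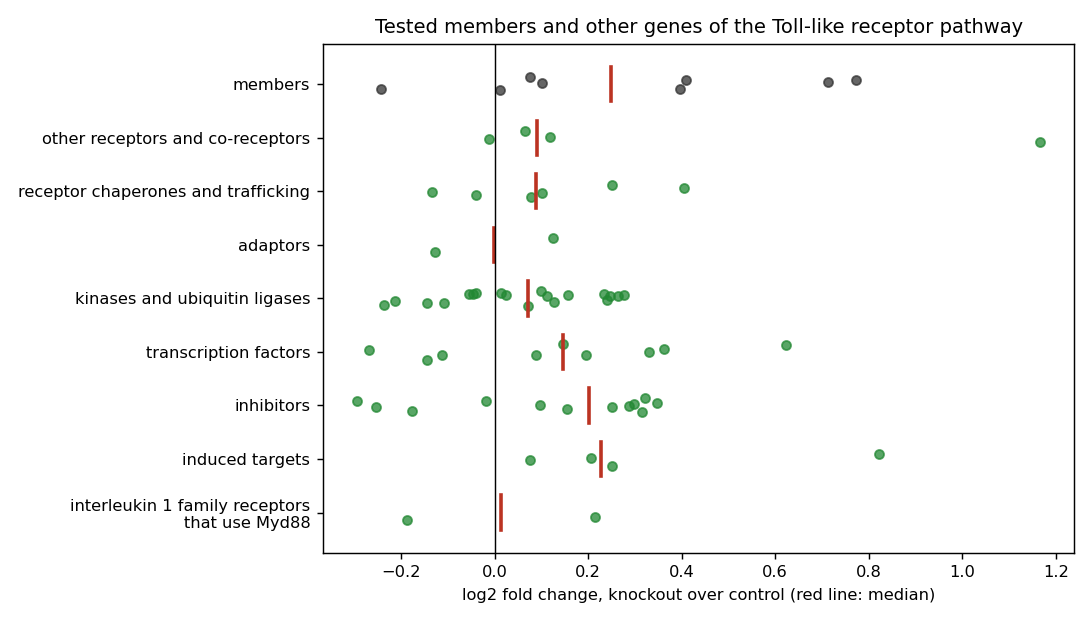
Log2 fold change (knockout over control) of each tested member and each tested gene of 8 other parts of the pathway, 1 point per gene, with the median of each group as a red line. Group medians lie between -0.0008 for the adaptors and 0.25 for the members, and Cd180, at 1.17, stands highest.

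The members varied in unlike ways across the 8 libraries. On the log2 CPM scale the SD of a tested member over all libraries ran from 0.17 for Myd88 to 0.90 for Tlr1. The average profile of the 8 tested members, each centred on its own mean, was lowest in control replicate 4, at -0.58, and in control replicate 2, at -0.36, and highest in knockout replicate 4, at 0.34, and control replicate 1, at 0.30. Control replicate 4 was the library with the smallest total. In CPM, Tlr1, Tlr2 and Cd14 were lowest in it, with 2, 1 and 16 counts. Tlr4, Tlr13, Ly96, Ly86 and Myd88 were each lower in at least 1 other library. Single members differed from this average by a mean of 0.24 (Cd14) to 0.53 (Tlr2) log2 units per library.

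Of 10854 other genes with enough spread, the 5 whose profile came closest to that average over the 8 libraries were Kctd12, Lix1l, Cog3, Pf4 and Lhpp. They differed from it by a mean of 0.0769, 0.0874, 0.0926, 0.093 and 0.0937 log2 units per library. All 5 were lowest in control replicate 4, as the average was, which follows from how they were chosen. The closeness was ranked among many genes over few libraries.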

How the data were processed

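Libraries were made by BRB-seq, a 3′-end method primed with oligo-dT and cut with Tn5, and 51 bases were read, per the labels' protocols. The authors deposited estimated counts per gene, not normalized, and per the submitters' processing notes Salmon and GRCm38 were used. Its version, the transcript set and whether molecular identifiers were used: not given in the sources used here. The design allowed for estimated counts, and these were rounded to whole numbers for the tests. Of the values above 0, 59.56% were whole numbers.

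Identifiers were matched without version to GENCODE M21 of GRCm38 (34582 of 34866 found), which also gave the coordinates. The genotype comparison used edgeR 4.0.16 (R 4.3.3): robust quasi-likelihood F test, genotype as the only term, TMM factors, filterByExpr (minimum count 10), Benjamini-Hochberg adjustment over 12480 genes. CPM are counts scaled by the TMM-adjusted library size. The tests were tested on simulated data first.

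Alternatives tried were other scaling (RLE, upper quartile, library totals), no filter or a minimum of 80 counts over all libraries, limma-voom (limma 3.58.1), DESeq2 1.42.0, the replicate number as a block and leaving out each library. DESeq2 was run without the low-count filter. Running it with that filter, summing Tlr1 with Tlr6, the ratio without Lyz2 and the leave-one-out ratios were added after seeing the data. Pairs of libraries within a genotype differed by a chi-square of 4.48 to 9.4 per degree of freedom, so none looked deposited in duplicate. The members and gene lists were chosen with earlier results of these data known. Named were all members, pathway genes with an unadjusted p under 0.05, and the 5 genes nearest the members' average profile.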

Additional observations from a re-analysis of the deposited data

Results flagged for a closer look

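Within each genotype, the highest and lowest libraries were compared with Dixon's 95% critical value for 4 samples, which chance passes in about 1 of 20 groups. Of 54 groups of values (members, named pathway genes and marker sums), 2 held such a library, where chance gives 2.7. Tlr8 was at 3.205 CPM, or 5 counts, in control replicate 4, while the other controls had 0 to 0.418 CPM. The mesothelial marker sum was 134.46 CPM in knockout replicate 4, against 70.2 to 78.8 CPM in the other knockouts.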

How the results depend on the processing

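In all 16 alternatives 0 members and 0 of the pathway genes passed the threshold. The number of all genes past it went from 21 to 58 without the low-count filter, 53 with DESeq2 on all 22958 genes with a count, 55 with DESeq2 on the filtered genes (added after seeing the data) and 6 with the replicate block. When 1 library was left out the count was 4 to 43 (4 without control replicate 2, 43 without control replicate 4). The cause was not tested. Members with an unadjusted p under 0.05 numbered 1 with library totals only (Tlr13), 0 with the replicate block and 0 to 2 when 1 library was left out (Tlr1 and Cd14 without control replicate 1, Tlr13 without knockout replicate 2). Members whose log2 fold change turned sign lay near 0 or rested on 1 library. Tlr4 turned to -0.0705 with limma-voom and to -0.00098 with the replicate block, and lay between -0.0964 and 0.124 when 1 library was left out (-0.0297 and -0.044 without control replicates 3 and 4, -0.0964 and -0.0823 without knockout replicates 1 and 4). Ly86 turned to -0.23 with limma-voom and to -0.123 with the replicate block, and lay between -0.567 and 0.273 when 1 library was left out, with -0.0234 without control replicate 2 and -0.567 without knockout replicate 4. Ly96 turned to -0.016 and -0.0183 without control and knockout replicate 2 (leave-one-out range -0.0183 to 0.259), and Tlr2 to -0.00452 without knockout replicate 4 (range -0.00452 to 0.805). The cause of these turns was not tested. Tlr1, Tlr13, Cd14 and Myd88 kept their direction in all alternatives, though leave-one-out values ran from 0.447 to 1.55 for Tlr1 and from 0.153 to 0.699 for Cd14. Deviations of same-numbered libraries from their genotype means correlated at 0.25, -0.062, -0.0058 and -0.24, and 1 of 4 controls correlated best with its own number. The labels name no pairing of the libraries, and so few pairs cannot show whether there was one. Library totals in place of TMM factors raised the median of all genes by 0.069 on the log2 scale. Tlr7 and Tlr8 had no value with the filter. With these counts the intervals of most members span more than a 2-fold range.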

Other observations

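A pair of genes induced by Toll-like receptor signalling fell below the low-count filter and were noticed after their values were seen. Il1rn, which encodes the interleukin 1 receptor antagonist, was at 1.999 ± 0.993 CPM in the controls and 6.58 ± 2.98 CPM in the knockouts (SD, n = 4), without overlap. Fitted without the filter its log2 fold change was 1.59, with an edgeR adjusted p of 0.46. Cxcl1, a neutrophil chemokine gene, had 3, 3, 1 and 0 counts in the controls and 10, 6, 9 and 10 in the knockouts, again without overlap, and an edgeR adjusted p of 0.60 without the filter. Neither passed the threshold. The other induced genes below the filter overlapped between the genotypes and pointed both ways in that fit. Their log2 fold changes ran from -1.89 for Il12b to 1.56 for Il1a, which had 1 count over all libraries. The share of all genes below the filter without overlap was not counted.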
